A study of Mus musculus with 12 samples.

Results

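Messenger RNA levels of 9 genes of adipokine biology were followed in healing skin wounds of diabetic mice. Of these genes, 6 encode secreted adipokines (Lep, Adipoq, Retn, Nampt, Rbp4 and Rarres2) and 3 encode adipokine receptors (Lepr, Adipor1 and Adipor2). They were chosen by name, with earlier results of these data known, from 54232 genes listed in the count files. All 9 passed the filter on low counts that kept 18618 genes for testing. RNA was sequenced from 12 dorsal wounds of male C57BLKS/J mice of genotype Lepr (db/db), labelled 12.5 weeks of age. The wounds were made with a 6 mm punch and collected on day 10. In 5 wounds the cover was Tegaderm film alone (TD), in 4 it was a patch inducing about 30% strain (Strain), and in 3 it was a patch without strain (No Strain). Every group, TD included, carries the db/db mutation, so no library has an intact leptin receptor gene to compare with. The labels do not say whether any of the wounds came from the same animal, and p-values measure only the spread between these libraries, which may in part be technical.

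Adipokines are hormones and other secreted proteins released largely by fat cells, which form a dermal and a subcutaneous layer in skin. Leptin signals through the long form of its receptor to JAK2 and STAT3 and induces its own inhibitor SOCS3. The db mutation alters splicing of Lepr so that this long form is lost, and mice with it are obese, diabetic and slow to heal. Adiponectin acts through 2 receptors and is bound at cell surfaces by T-cadherin, while chemerin, the product of Rarres2, recruits immune cells through Cmklr1.

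All 9 genes were counted in every library. Total counts ran from 20354677 to 25059371 per library. Levels are given as CPM, the count brought to a common library size after TMM scaling, and the limit that a count of 0 allows (3 counts) was at most 0.149 CPM. Defining markers of the labelled tissue were present: the mean log2 CPM of 12 keratinocyte markers lay between 8.66 and 10.1 and that of 10 fibroblast markers between 9.83 and 10.6 in all 12 libraries. Markers of fat cells, neutrophils and skeletal muscle differed between the groups, and their values stand beside the results they touch.

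Wounds under either patch held less leptin, adiponectin and resistin messenger RNA than wounds under film alone, and more Nampt. Lep fell 3.46-fold in Strain and 8.29-fold in No Strain against TD, Retn fell 2.90-fold and 5.74-fold, and Adipoq fell 2.83-fold and 6.31-fold. Nampt rose 1.75-fold and 1.91-fold. In Strain against TD, 4 of the 9 genes passed an adjusted p of 0.05 in edgeR's quasi-likelihood test with Benjamini-Hochberg adjustment over all genes (1 higher, 3 lower). Of all genes tested 12.6% passed there, 6.20% higher and 6.41% lower. When 1 library was left out, the call of Lep in Strain held in all 12 fits. That of Adipoq held in 3, that of Retn in 6 and that of Nampt in 7. In No Strain against TD the same 4 passed (1 higher, 3 lower), beside 17.8% of all genes, 9.35% higher and 8.40% lower. With both patch groups averaged against TD, Adipor2 passed as well, making 5 (1 higher, 4 lower), beside 24.4% of all genes, 12.4% higher and 12.1% lower. Libraries of Strain and TD were fully separated for 2 of the 9 genes, Lep and Retn, both lower in Strain, beside 14.6% of all genes (7.47% higher, 7.15% lower). Those of No Strain and TD were separated for 4 (1 higher, 3 lower), beside 26.7% (14.3% higher, 12.5% lower). These comparisons share the 5 TD libraries and are not independent of each other.

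**Figure D1:**
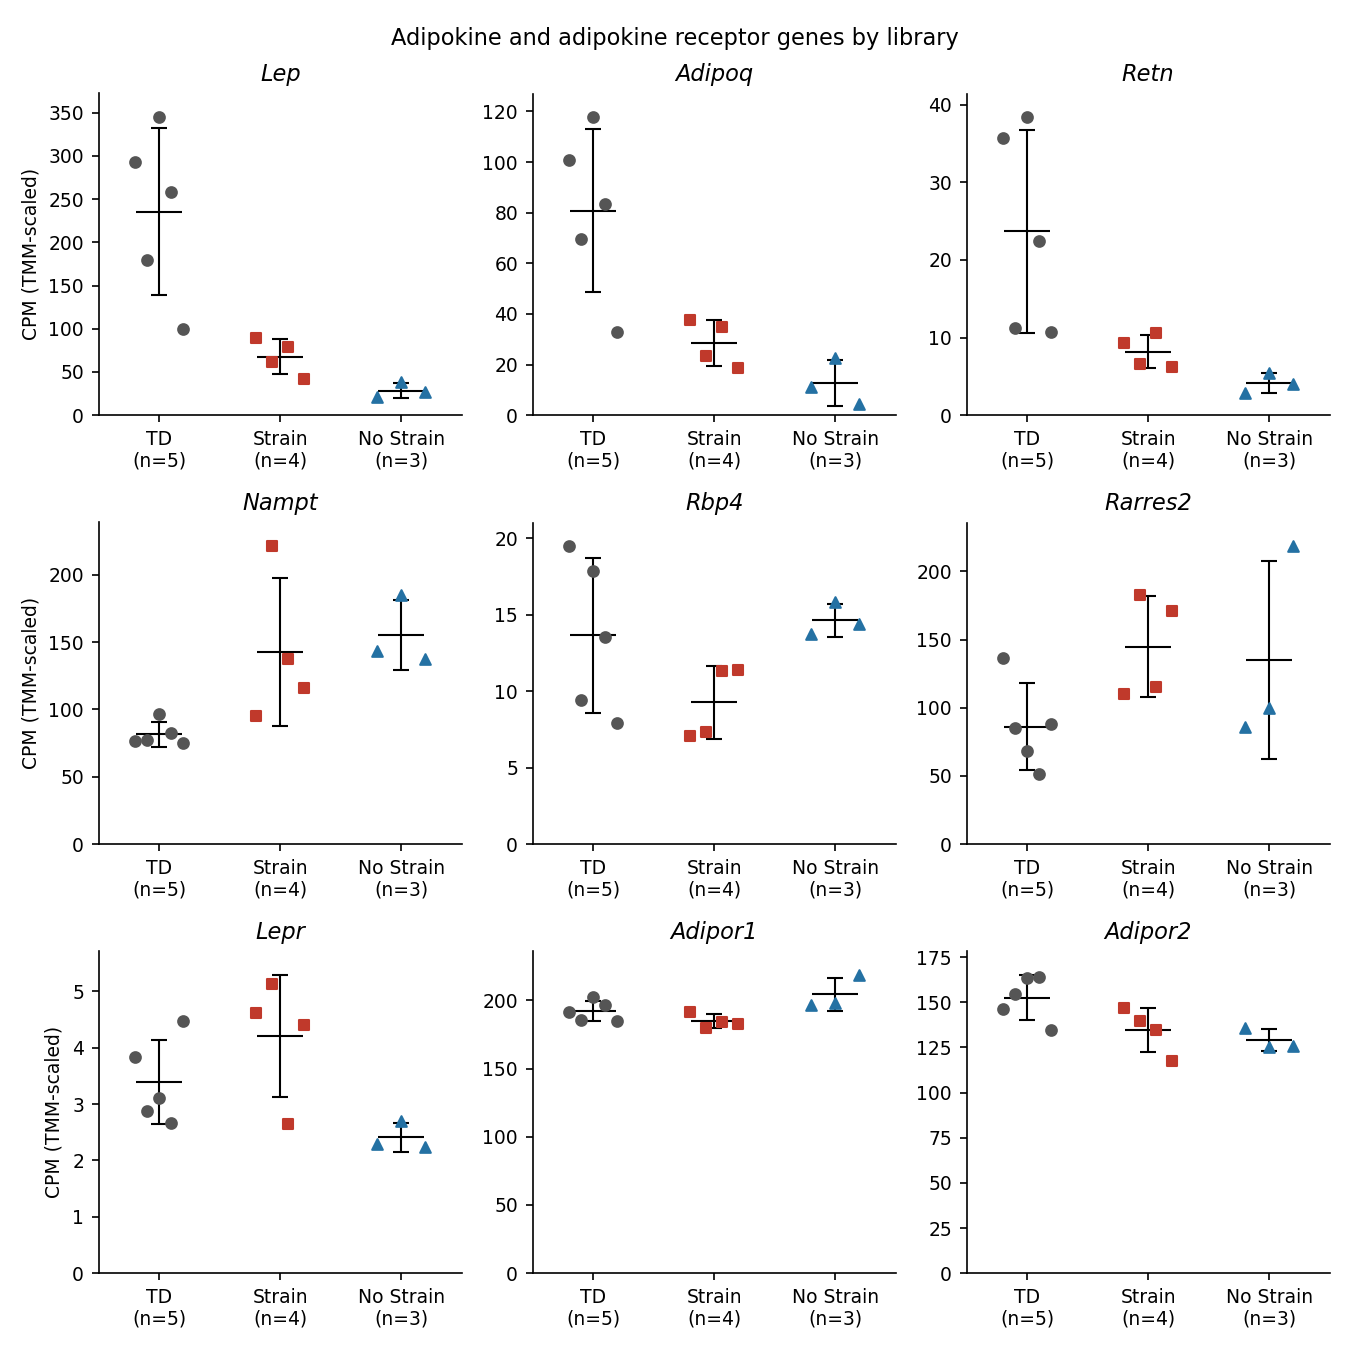
Level of each gene in CPM (TMM-scaled, linear axis from 0) in every library, by group (TD n = 5, Strain n = 4, No Strain n = 3). Points are libraries, the long bar is the mean and the error bar is the SD. Lep lay between 99.7 and 345 CPM in TD and between 20.9 and 89.1 CPM under the patches, while Adipor1 stayed between 179.5 and 218 CPM in all 12 libraries.

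Leptin is the hormone by which fat cells report fat stores. Its gene, Lep (ENSMUSG00000059201, chr6:29060220-29073877 of GRCm38, the build of all coordinates here, plus strand), gave 293, 179.8, 345, 259 and 99.7 CPM in TD libraries 1 to 5. The Strain libraries gave 89.1, 61.9, 78.7 and 41.7 CPM, and the No Strain libraries 20.9, 37.8 and 26.3 CPM. The 3 groups did not overlap: the lowest TD library stood above all Strain libraries, and the lowest Strain library above all No Strain libraries. Mean levels were 235 ± 96.6 CPM (SD, n = 5) in TD, 67.9 ± 20.7 (SD, n = 4) in Strain and 28.4 ± 8.61 (SD, n = 3) in No Strain. The log2 fold change was -1.79 (SE 0.352, edgeR adjusted p = 0.0122) in Strain and -3.05 (SE 0.422, edgeR adjusted p = 0.00249) in No Strain against TD. Both calls held in all 12 fits that left out 1 library.

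Adiponectin, the most abundant protein hormone of fat tissue and an insulin sensitizer, showed the same order of group means. Adipoq (ENSMUSG00000022878, chr16:23146536-23158028, plus strand) measured 101, 69.5, 118, 83.4 and 32.9 CPM in the TD libraries. It measured 37.5, 23.3, 35.0 and 18.5 CPM in Strain and 11.1, 22.7 and 4.60 CPM in No Strain. TD library 5 lay within the range of Strain, and No Strain library 2 also lay within it, while TD and No Strain did not overlap. Adipoq had a log2 fold change of -1.50 (SE 0.445, edgeR adjusted p = 0.0482) in Strain and -2.66 (SE 0.530, edgeR adjusted p = 0.00854) in No Strain. The call in Strain stood just under the threshold, and it was lost without any 1 of TD libraries 1 to 4, without any 1 Strain library or without No Strain library 1 (edgeR adjusted p 0.0596 to 0.132). It was also lost with library totals alone as scaling (edgeR adjusted p = 0.0503), without a filter on low counts (0.142), with the letter in the sample titles as a covariate (0.102) and in limma-voom (0.0658). The title letter was mostly R in TD and mostly L in Strain and No Strain. A fit with the letter therefore cannot fully separate letter and group, here or for the genes below. The call in No Strain held in all 12 such fits.

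Resistin, which mouse fat cells secrete and which opposes insulin action, moved with them. Retn (ENSMUSG00000012705, chr8:3655770-3660110, plus strand) gave 35.7, 11.2, 38.4, 22.5 and 10.7 CPM in TD. It gave 9.34, 6.57, 10.6 and 6.18 CPM in Strain and 2.84, 5.49 and 4.04 CPM in No Strain. The groups did not overlap, although TD library 5 and Strain library 3 lay close together. Retn had a log2 fold change of -1.54 (SE 0.406, edgeR adjusted p = 0.0325) in Strain and -2.52 (SE 0.481, edgeR adjusted p = 0.00710) in No Strain. The call in Strain was lost without TD library 1, 3 or 4 or Strain library 1, 2 or 4 (edgeR adjusted p 0.0592 to 0.0974). It was also lost without a filter on low counts (edgeR adjusted p = 0.0926), with the title letter as a covariate (0.0592) and in limma-voom (0.146). The call in No Strain held in all 12 fits that left out 1 library.

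Promoter sequences from RefSeq (GRCm38.p6) were matched for 8 of the 9 genes, Rarres2 being the gene without an entry. The 250 bases before the annotated RefSeq start are shown for the 4 genes that passed in both comparisons with TD, since 3 of them fell together. For Nampt that start lies inside the gene as placed by the GENCODE coordinates used elsewhere here, which begin at chr12:32819545. Both strands were searched for TTGCGCAA, a palindrome that C/EBP factors of fat cell differentiation can bind, for CCAAT, for TATAA, the core of a TATA box, and for AGGTCA, a core element bound by nuclear receptors. Capitals mark the matches in Lep chr6:29059971-29060220, Adipoq chr16:23146286-23146535, Retn chr8:3655520-3655769 and Nampt chr12:32820085-32820334, all on the plus strand.
Lep: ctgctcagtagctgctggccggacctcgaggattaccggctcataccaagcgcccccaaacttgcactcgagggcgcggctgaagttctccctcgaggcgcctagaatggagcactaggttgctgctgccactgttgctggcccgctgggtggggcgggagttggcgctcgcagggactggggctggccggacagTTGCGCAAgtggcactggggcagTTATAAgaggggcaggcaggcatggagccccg
Adipoq: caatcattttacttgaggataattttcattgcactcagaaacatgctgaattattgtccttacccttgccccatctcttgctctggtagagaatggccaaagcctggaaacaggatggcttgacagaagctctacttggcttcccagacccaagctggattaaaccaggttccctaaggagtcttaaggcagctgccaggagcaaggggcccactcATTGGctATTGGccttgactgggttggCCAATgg
Retn: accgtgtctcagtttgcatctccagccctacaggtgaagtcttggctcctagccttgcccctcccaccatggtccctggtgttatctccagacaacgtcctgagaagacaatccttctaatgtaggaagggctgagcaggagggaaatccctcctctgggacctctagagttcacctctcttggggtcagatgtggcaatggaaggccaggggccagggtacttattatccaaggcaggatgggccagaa
Nampt: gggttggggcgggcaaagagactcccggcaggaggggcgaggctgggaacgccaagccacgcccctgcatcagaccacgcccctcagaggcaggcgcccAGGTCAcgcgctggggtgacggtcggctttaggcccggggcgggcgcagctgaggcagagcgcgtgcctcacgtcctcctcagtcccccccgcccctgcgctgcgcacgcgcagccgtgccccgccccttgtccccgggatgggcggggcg
Lep held TTGCGCAA from 55 to 48 bases before the start, a word found in 0.164% of 32851 promoter windows of this length, and TATAA on both strands, overlapping, between 32 and 27 bases before the start (22.8% of windows). Adipoq held CCAAT 3 times, at 7 to 3 bases on the same strand and at 27 to 23 and 34 to 30 bases on the opposite strand (33.8% of windows hold it at least once). Nampt held AGGTCA from 151 to 146 bases before the start (14.0% of windows). None of the words occurred in the Retn window. A match describes letters and was not tied to the levels measured here.

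Markers of fat cells fell along with these hormones. By the same edgeR test, 11 of 22 adipocyte markers fell and none rose in Strain against TD, beside 6.41% of all genes that fell. In No Strain 16 fell and none rose, beside 8.40% of all genes. When 1 library was left out, 6 to 16 fell in Strain, fewest without TD library 3 or 4 or Strain library 2, and 8 to 16 in No Strain, fewest without No Strain library 3. The median log2 fold change of the list was -0.73 in Strain and -1.09 in No Strain, while the median over all genes was 0.02 and 0.00. Cidec, a lipid droplet protein of fat cells, fell 2.84-fold and 7.29-fold (edgeR adjusted p = 0.0139 and 0.00220), and Aqp7, a glycerol channel, fell by 1.32 and 1.76 on the log2 scale (edgeR adjusted p = 0.00758 and 0.00270). The mean log2 CPM of the markers ran from 6.45 to 7.50 in TD, 5.89 to 6.56 in Strain and 5.49 to 5.91 in No Strain. Their summed level ran from 5595 to 10184 CPM, 3586 to 5434 CPM and 3519.9 to 4404 CPM, and none of the 22 was at 0 in any group. TD library 5, lowest in Lep, Adipoq and Retn among TD libraries, also had the lowest marker mean in TD. In bulk tissue, fewer fat cells and less RNA per fat cell cannot be told apart.

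Relative to the marker mean, Lep also averaged lower under both patches, although Strain libraries overlapped TD libraries. On the log2 CPM scale, Lep minus the adipocyte marker mean averaged 0.76 in TD (SD 0.346, n = 5), -0.11 in Strain (SD 0.360, n = 4) and -0.98 in No Strain (SD 0.463, n = 3). No Strain libraries, at -1.51 to -0.67, did not overlap TD libraries, at 0.19 to 1.10, or Strain libraries, at -0.50 to 0.34. The same difference for Adipoq averaged -0.78 ± 0.368 in TD, -1.36 ± 0.320 in Strain and -2.36 ± 0.932 in No Strain. For Retn it averaged -2.62 ± 0.552, -3.13 ± 0.159 and -3.75 ± 0.532. Strain values of Retn, at -3.24 to -2.90, lay within those of TD, at -3.29 to -1.93. Strain and TD values of Adipoq overlapped, at -1.67 to -0.91 and -1.40 to -0.44. Cfd, a further fat cell gene described below, averaged -2.13 ± 0.652 in TD, -1.87 ± 0.263 in Strain and -3.17 ± 0.782 in No Strain. Its mean was thus not lower in Strain than in TD. These differences are descriptions and depend on which markers form the mean. With the marker mean as a covariate in the edgeR fit, the fold change of Lep was -0.52 in Strain (edgeR adjusted p = 0.555) and -1.23 in No Strain (edgeR adjusted p = 0.320), and no member passed in any comparison. Over all 18618 genes, 75 passed in that fit in Strain and 179 in No Strain. The marker mean separates the groups almost completely, so group and fat cell content cannot be told apart by that fit.

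**Figure D2:**
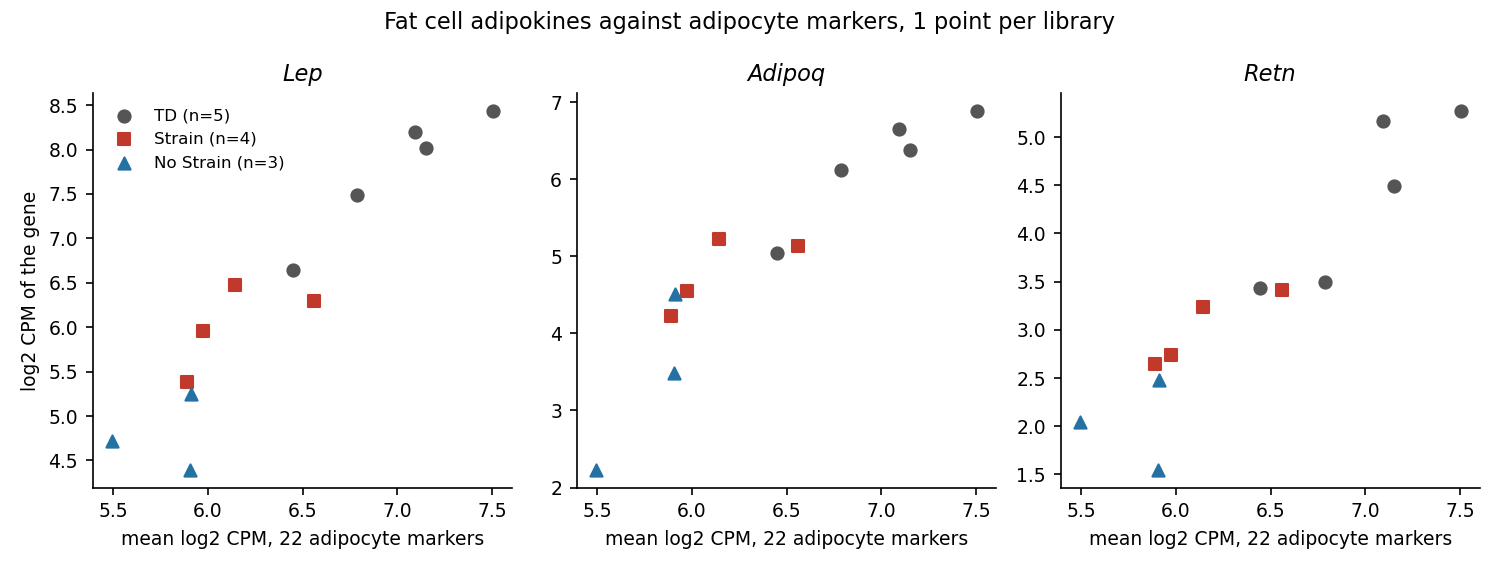
Log2 CPM of Lep, Adipoq and Retn (vertical axis) against the mean log2 CPM of 22 adipocyte markers (horizontal axis), 1 point per library. All 3 genes tended to be higher where the marker mean was higher, and at a marker mean near 5.9 the Strain library with 41.7 CPM of Lep lay beside No Strain libraries with 20.9 and 37.8 CPM.

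Nampt, the rate-limiting enzyme of NAD salvage and also secreted as visfatin, went the other way. Nampt (ENSMUSG00000020572, chr12:32819545-32853349, plus strand) measured 76.2, 77.0, 97.0, 82.2 and 75.0 CPM in TD. It measured 95.5, 221, 137 and 116 CPM in Strain and 143, 185 and 137 CPM in No Strain. Strain library 1 lay just below the highest TD library, and all No Strain libraries lay above TD. Nampt had a log2 fold change of 0.81 (SE 0.207, edgeR adjusted p = 0.0295) in Strain and 0.93 (SE 0.222, edgeR adjusted p = 0.0174) in No Strain. In Strain the call was lost without TD library 1, 2, 4 or 5 or Strain library 2 (edgeR adjusted p 0.0550 to 0.0648), and without Strain library 2 the fold change was 0.51. The same call was lost without a filter on low counts (edgeR adjusted p = 0.0748) and with the title letter as a covariate (0.0956). In No Strain it was lost without No Strain library 2, with a fold change of 0.78 (edgeR adjusted p = 0.0629).

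Neutrophil markers rose along with Nampt: 13 of 15 rose in Strain and 11 of 15 in No Strain, beside 6.20% and 9.35% of all genes. Median log2 fold changes of these markers were 1.91 and 2.41. When 1 library was left out, 7 to 11 rose and 9 to 13 rose, fewest in Strain without TD library 3 or Strain library 2. Their mean log2 CPM ran from 2.46 to 2.99 in TD, 4.17 to 4.72 in Strain and 4.22 to 5.45 in No Strain. Their summed level ran from 560.2 to 1729.7 CPM, 1091 to 8915 CPM and 2687 to 5437 CPM, with none of the 15 at 0 in any group. Mmp8, a neutrophil collagenase, rose by 2.12 and 3.48, and Clec4e, a pattern receptor of myeloid cells, by 2.52 and 2.78 on the log2 scale (edgeR adjusted p 0.00111 to 0.00856). With the neutrophil marker mean as a covariate, an alternative chosen after seeing the data, the fold change of Nampt was 0.56 in Strain and 0.63 in No Strain (edgeR adjusted p = 0.927 and 0.954). That mean did not overlap between TD and the patches, and 0 of 18618 genes passed in that fit. Group and neutrophil content therefore cannot be told apart by it, for Nampt or for the genes below. Of 12 macrophage markers 1 rose and 0 fell in each comparison in edgeR. It was Msr1, a scavenger receptor, with a log2 fold change of 0.85 in Strain and 1.09 in No Strain. The call in Strain was lost in 11 of 12 fits that left out 1 library. That in No Strain was lost without No Strain library 1 or 3 and without a filter on low counts. Log2 fold changes of the macrophage list ran from -0.85 to 0.85 in Strain (median 0.35). They ran from -1.67 to 1.09 in No Strain (median 0.58). In No Strain 1 macrophage marker fell in DESeq2, where 2 rose, and 1 fell in limma-voom, where 1 rose.

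Of 16 other genes of NAD metabolism, 2 rose in Strain, and 3 rose and 1 fell in No Strain, beside 12.6% and 17.8% of all genes that passed. When 1 library was left out, 0 to 3 rose in Strain, none without Strain library 2, and 2 to 3 rose and 0 to 1 fell in No Strain, fewest without No Strain library 3. The 2 that rose in both, Bst1 and Cd38, encode enzymes that consume NAD. With both patch groups averaged, Bst1 rose by 1.31 on the log2 scale (edgeR adjusted p = 0.00575) and Cd38 by 1.09 (edgeR adjusted p = 0.00663), and both calls held in all 12 fits that left out 1 library. Against TD alone, the call of Cd38 in Strain (edgeR adjusted p = 0.0379) was kept in 5 of 12 such fits and lost in limma-voom, and that of Bst1 was lost in Strain without Strain library 2 and in No Strain without No Strain library 3. The list's median log2 fold change was -0.01 in Strain and -0.02 in No Strain, close to that of all genes.

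Rbp4 and Rarres2 did not pass in any comparison. Rbp4 (ENSMUSG00000024990, chr19:38116629-38125281, minus strand) encodes the blood carrier of retinol. It measured 19.5, 9.45, 17.9, 13.6 and 7.89 CPM in TD, 7.06, 7.34, 11.3 and 11.4 CPM in Strain and 13.7, 15.8 and 14.4 CPM in No Strain. Of the Strain libraries 2 lay below the TD range and 2 within it, and all No Strain libraries lay inside it. Rbp4 had a log2 fold change of -0.56 (SE 0.266, edgeR adjusted p = 0.189) in Strain and 0.10 (SE 0.284, edgeR adjusted p = 0.842) in No Strain. Fat cells are a known source of Rbp4, but it had no call where Lep, Adipoq and Retn fell, and the difference between the genes was not tested.

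Rarres2 (ENSMUSG00000009281, chr6:48569696-48572789, minus strand) encodes chemerin, a chemoattractant secreted as an inactive precursor. It measured 137, 85.4, 68.5, 51.4 and 88.4 CPM in TD, 110.4, 183, 115 and 171 CPM in Strain and 86.1, 100.2 and 218 CPM in No Strain. TD library 1 lay above 2 of the 4 Strain libraries, and No Strain library 3 above all others. Its log2 fold change was 0.75 (SE 0.322, edgeR adjusted p = 0.145) in Strain and 0.65 (SE 0.347, edgeR adjusted p = 0.218) in No Strain. In No Strain it was 0.11 without No Strain library 3 (edgeR adjusted p = 0.862). With both patch groups averaged it was 0.70 (edgeR adjusted p = 0.0986), and without TD library 1 it was 0.93 and passed (edgeR adjusted p = 0.0426). Exons of Rarres2 overlap those of Lrrc61 on the opposite strand by 892 bases, and the strand setting of the counting is not given in the sources used here, so reads of these 2 genes may not be separated.

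**Figure D3:**
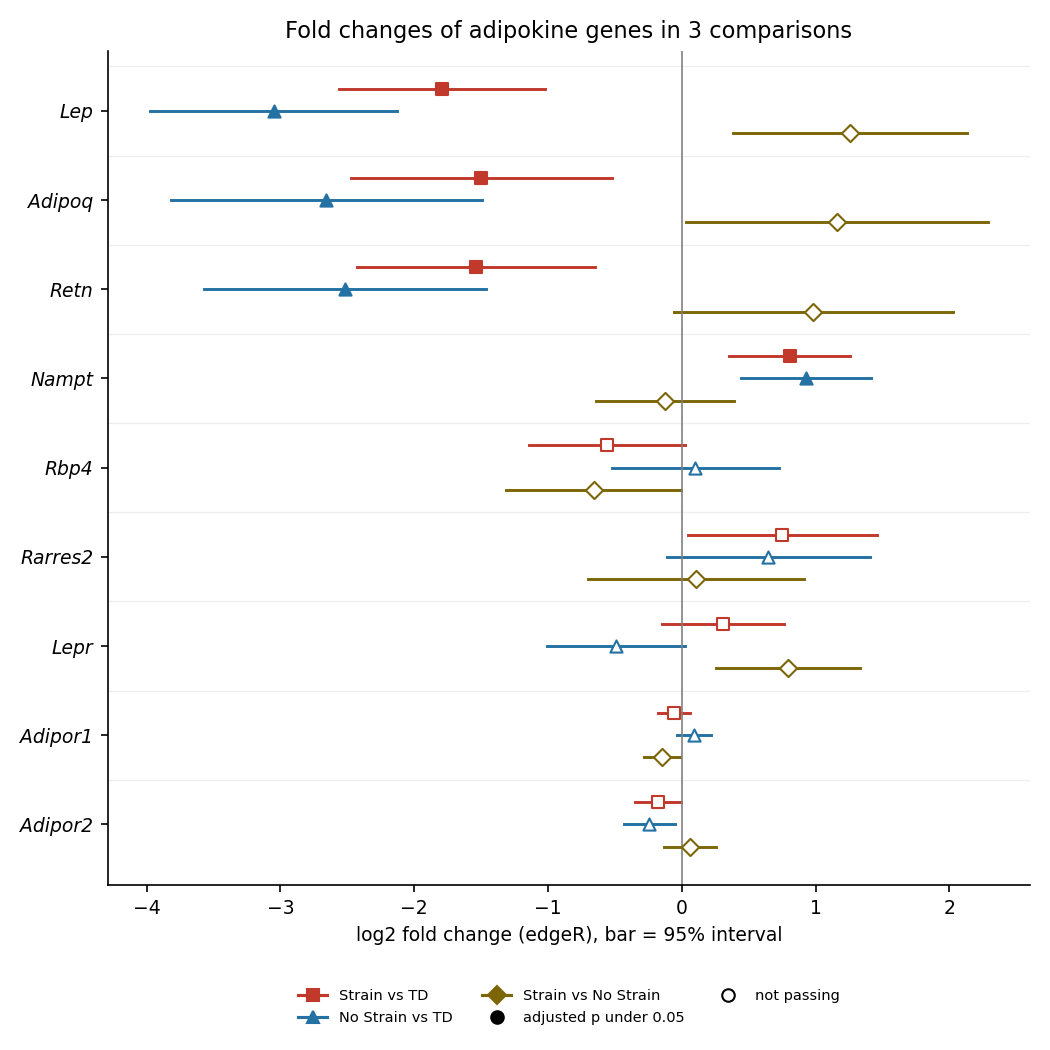
Log2 fold changes of the 9 genes in the edgeR fit, with 95% intervals, for Strain against TD, No Strain against TD and Strain against No Strain; filled symbols passed an adjusted p of 0.05 and open symbols did not. Lep, Adipoq and Retn lie left of 0 and Nampt right of 0 against TD, and all 9 symbols for Strain against No Strain are open.

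Of the 3 receptor genes, Adipor2 passed in edgeR's fit of all libraries, with both patch groups averaged. Lepr (ENSMUSG00000057722, chr4:101717404-101815352, plus strand) was the lowest of the 9 genes, with 3.83, 2.88, 3.11, 2.66 and 4.47 CPM in TD, 4.62, 5.13, 2.65 and 4.41 CPM in Strain and 2.30, 2.70 and 2.23 CPM in No Strain. The No Strain libraries were at the low end and 3 of 4 Strain libraries at the high end, with overlap between all groups. Its log2 fold change was 0.31 (SE 0.209, edgeR adjusted p = 0.355) in Strain and -0.49 (SE 0.236, edgeR adjusted p = 0.171) in No Strain. These are counts over the whole gene: they do not separate the long from the short forms of the receptor and check nothing about the mutation.

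Adipor1 and Adipor2 encode the 2 adiponectin receptors, known for raising AMPK activity and fatty acid oxidation. Adipor1 (ENSMUSG00000026457, chr1:134415378-134433351, plus strand) measured 192 ± 7.38 CPM (SD, n = 5) in TD, 185 ± 5.20 (SD, n = 4) in Strain and 205 ± 12.1 (SD, n = 3) in No Strain. Its fold change against TD lay between -0.18 and 0.06 in Strain and between -0.04 and 0.22 in No Strain (95% intervals, log2), and neither passed (edgeR adjusted p = 0.505 and 0.318). Adipor2 (ENSMUSG00000030168, chr6:119353150-119417704, minus strand) gave 146, 154, 164, 164 and 135 CPM in TD. It gave 147, 139, 135 and 118 CPM in Strain and 136, 125 and 126 CPM in No Strain, so TD libraries 1 and 5 lay among the patch libraries. With both patch groups averaged, Adipor2 fell by 0.21 on the log2 scale (SE 0.0686, edgeR adjusted p = 0.0441). That call was lost without TD library 1, 2, 3 or 4, No Strain library 2 or 3 or Strain library 4 (edgeR adjusted p 0.0559 to 0.103). Against TD alone Adipor2 did not pass in Strain (log2 fold change -0.18, edgeR adjusted p = 0.152) or in No Strain (-0.24, edgeR adjusted p = 0.0727), but it passed in No Strain without TD library 5 or Strain library 4 (edgeR adjusted p = 0.0419 and 0.0496), with library totals alone as scaling (edgeR adjusted p = 0.0362) and in DESeq2 (adjusted p = 0.0392).

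Per kilobase of annotated exon, the order of the 9 genes differed between film and patches. In TD the levels were Lep 70.1, Adipoq 58.6, Adipor1 38.3, Rarres2 32.4, Adipor2 25.5, Nampt 16.1, Retn 15.0, Rbp4 10.2 and Lepr 0.481 CPM per kilobase. Neighbours in that order had overlapping ranges of mean ± SD except Adipor2 and Nampt, and Rbp4 and Lepr. In Strain, Rarres2 led at 54.6 CPM per kilobase, apart from Adipor1 at 36.8, and Lep at 20.2, Adipoq at 20.7 and Adipor2 at 22.5 had overlapping ranges of mean ± SD. In No Strain, Rarres2 at 50.8 and Adipor1 at 40.7 were highest, and Lep at 8.46 lay with Adipoq at 9.25 and Rbp4 at 10.9 CPM per kilobase, above Retn at 2.61 and Lepr at 0.342. The Rarres2 mean in No Strain was raised by No Strain library 3, far above the other libraries of that group. Reads of Rarres2 may not be separated from those of Lrrc61 in any group, as stated above.

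Strain against No Strain asks what the imposed stretch adds, since both groups wore a patch. None of the 9 genes passed edgeR's adjusted threshold, where 0% of all genes did, and none passed in DESeq2 or limma-voom. At an unadjusted p under 0.05, 5 of the 9 genes differed, beside 5.61% of all genes tested. Lep had a log2 difference of 1.26 (95% interval 0.38 to 2.13, edgeR adjusted p = 0.872), Lepr of 0.80 (0.26 to 1.34) and Adipoq of 1.16 (0.03 to 2.29), all higher in Strain. Rbp4 had a difference of -0.66 (-1.31 to -0.01) and Adipor1 of -0.15 (-0.28 to -0.01), lower in Strain, and each of these had the same adjusted p. Lep and Retn were higher in every Strain library than in any No Strain library, and Rbp4 and Adipor1 lower. Retn was not among the genes with an unadjusted edgeR p under 0.05. Its log2 difference ran from 0.77 to 1.25 when 1 library was left out. Full separation of the libraries held for 5.62% of all genes, 2.85% higher and 2.77% lower in Strain. Nampt, Rarres2 and Adipor2 had differences of -0.12 (-0.64 to 0.39), 0.10 (-0.70 to 0.91) and 0.06 (-0.13 to 0.26). With 4 and 3 libraries these intervals set no narrow bound on the differences of Lep and Adipoq. The adipocyte marker list had a median log2 difference of 0.29 and the skeletal muscle list one of -0.71 between these groups, with no gene of either passing.

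Among genes that act with or after the leptin receptor, Socs3 and Ptpn1 rose and Sh2b1 and Irs1 fell with both patches averaged. Of 14 genes, 4 rose and 2 fell in Strain, and 5 rose and 2 fell in No Strain, beside 12.6% and 17.8% of all genes that passed. In Strain 0 to 4 rose and 0 to 3 fell when 1 library was left out, none rising without TD library 2, 3 or 4 or Strain library 2 and none falling without Strain library 4. In No Strain 4 to 5 rose and 0 to 2 fell, none falling without No Strain library 1 or 3. The list had median log2 fold changes of 0.06 and 0.09 beside 0.02 and 0.00 for all genes. Socs3, the feedback inhibitor that leptin and other cytokines induce, gave 59.4 to 81.9 CPM in TD, 82.7 to 169.7 CPM in Strain and 132 to 291 CPM in No Strain, and the patch libraries all lay above TD. With both patch groups averaged, Socs3 rose by 1.17 on the log2 scale (SE 0.220, edgeR adjusted p = 0.00441). Against TD alone the rise in No Strain was 1.50 (edgeR adjusted p = 0.00485), and that in Strain was 0.84 (edgeR adjusted p = 0.0445), a call kept in 3 of 12 fits that left out 1 library. With the neutrophil marker mean as a covariate the value of Socs3 turned to -0.65 in Strain, -0.39 in No Strain and -0.52 with both patches (edgeR adjusted p = 0.905, 0.962 and 0.930). As for Nampt, that fit cannot tell group and neutrophil content apart. Ptpn1, a phosphatase that switches off JAK2, rose by 0.54 with both patches (edgeR adjusted p = 0.00265). Sh2b1, an adaptor that enhances leptin and insulin signals, fell by 0.20 (edgeR adjusted p = 0.00596), and Irs1, an insulin receptor substrate, fell by 0.97 (edgeR adjusted p = 0.0165). The call of Irs1 was lost with the title letter as a covariate, and its value turned to 0.38 with the neutrophil mean (edgeR adjusted p = 0.969). Leprot, which encodes a protein known to limit leptin receptor at the cell surface, stood at 133 ± 15.0, 139.5 ± 15.8 and 139 ± 11.0 CPM in TD, Strain and No Strain and did not pass.

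For adiponectin, the surface partner Cdh13 (T-cadherin) measured 87.4 ± 9.31, 78.1 ± 9.14 and 86.2 ± 8.74 CPM in TD, Strain and No Strain, with no call. Of 10 genes of adiponectin signalling and secretion, 1 rose and 1 fell in Strain, beside 12.6% of all genes that passed. In No Strain 1 rose and 2 fell, beside 17.8% of all genes. When 1 library was left out, 0 to 1 rose and 1 to 2 fell in Strain. None rose there without TD library 2, 3 or 4 or Strain library 1 or 2. In No Strain 1 rose and 1 to 3 fell in such fits, fewest falling without any 1 No Strain library. Ero1l, an oxidase of the endoplasmic reticulum that helps release adiponectin, rose by 0.66 with both patches averaged (edgeR adjusted p = 0.00621). Prkaa2, a catalytic subunit of AMPK that is abundant in muscle, fell by 1.14 (edgeR adjusted p = 0.00235), and the adaptor gene Appl2 fell by 0.20 (edgeR adjusted p = 0.0254), a call lost without TD library 2, 3 or 5. Skeletal muscle markers fell in 13 of 17 genes in Strain and 3 of 17 in No Strain, beside 6.41% and 8.40% of all genes. Their median log2 fold changes were -1.53 and -0.81. When 1 library was left out, 7 to 15 and 1 to 7 of these markers fell, fewest without Strain library 2 and without No Strain library 2. Their mean log2 CPM ran from 8.13 to 9.47 in TD, 7.17 to 7.97 in Strain and 7.68 to 8.62 in No Strain, and their summed level from 7605 to 18945 CPM, 3678 to 6895 CPM and 5373 to 11448 CPM. Named muscle genes were Atp2a1, the calcium pump of fast muscle, which fell by 1.91 and 1.45 on the log2 scale, and Tnni2, a fast troponin, which fell by 1.70 and 1.13 (the No Strain call of Tnni2 was lost without No Strain library 1 or 2). None of the list was at 0 in any group. The part of muscle content in the value of Prkaa2 was not tested.

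The resistin family split in direction. Retnla encodes a secreted protein of alternatively activated macrophages and gave 32.6, 41.3, 34.1, 28.8 and 47.0 CPM in TD. It gave 1.84, 1.39, 1.36 and 1.15 CPM in Strain and 1.03, 0.772 and 0.372 CPM in No Strain, with the lowest library at 8 counts. Retnla was thus 25.6-fold lower in Strain and 50.1-fold lower in No Strain than in TD (log2 fold change -4.68 and -5.65, edgeR adjusted p = 7.08e-06 and 8.63e-06), beside 2.90-fold and 5.74-fold for Retn. Retnlg, a relative expressed in neutrophils and their precursors, rose instead, from 1.58 to 3.74 CPM in TD to 3.83 to 9.70 CPM in Strain and 10.6 to 24.0 CPM in No Strain. Its log2 fold change was 1.37 in Strain (edgeR adjusted p = 0.0281, kept in 6 of 12 fits that left out 1 library and lost in limma-voom) and 2.81 in No Strain (edgeR adjusted p = 0.00220, kept in 12 of 12). Retnlb was at 0 in all libraries and was not tested, and Cap1, a proposed resistin receptor, measured 387 ± 41.1, 412 ± 41.0 and 470 ± 43.0 CPM in TD, Strain and No Strain, without a call.

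**Figure D4:**
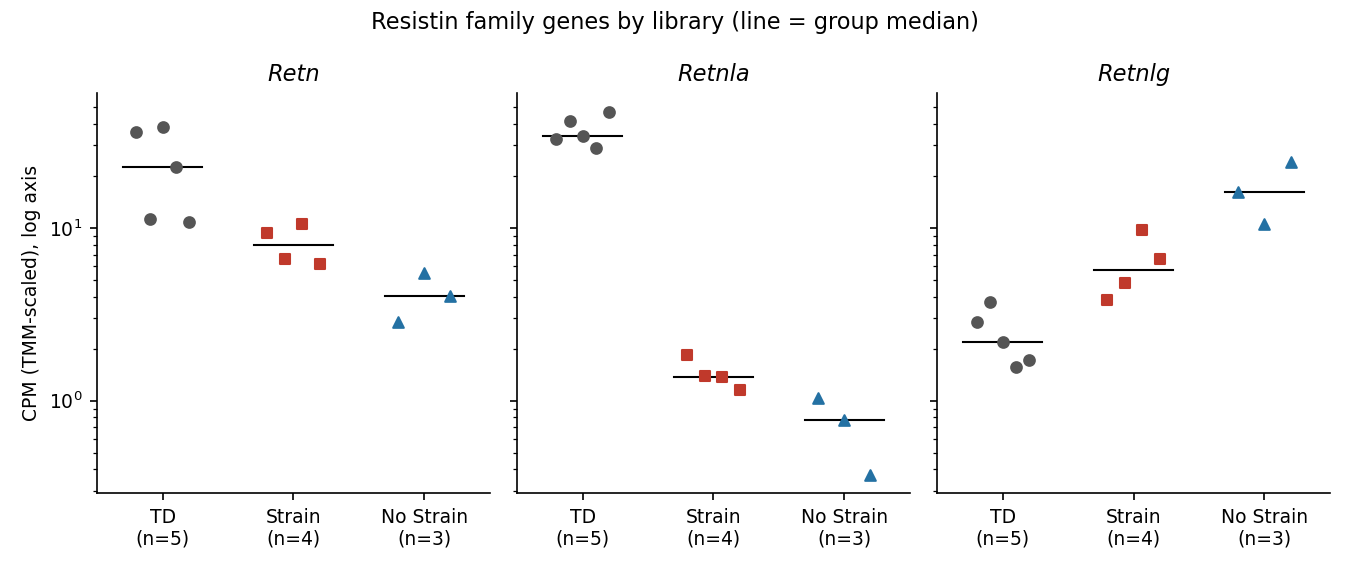
CPM on a log axis of Retn, Retnla and Retnlg in every library, by group, with a line at the group median. Retnla drops from a median of 34.1 CPM in TD to 1.38 in Strain and 0.772 in No Strain, while Retnlg climbs from 2.19 to 5.67 and 16.1 CPM.

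Of the chemerin receptors, Gpr1 fell under both patches and Cmklr1 had no call. Cmklr1, the signalling receptor, stood at 46.8 ± 10.8, 45.2 ± 8.69 and 49.6 ± 6.76 CPM in TD, Strain and No Strain, with no call. Gpr1, another chemerin receptor, gave 6.79, 10.1, 6.18, 3.88 and 13.2 CPM in TD, 2.04, 1.98, 2.18 and 4.79 CPM in Strain and 1.66, 0.815 and 0.790 CPM in No Strain. Only Strain library 4 reached into the range of TD. Gpr1 fell by 1.55 in Strain (edgeR adjusted p = 0.0309, kept in 7 of 12 fits that left out 1 library and lost in limma-voom) and by 2.87 in No Strain (edgeR adjusted p = 0.00479, kept in 12 of 12). With the neutrophil mean as a covariate the value of Gpr1 in Strain turned to 0.20 (edgeR adjusted p = 0.986). Ccrl2, an atypical receptor that binds chemerin without signalling, had a log2 fold change of 1.27 in Strain (edgeR adjusted p = 0.0804) and rose by 1.59 in No Strain (edgeR adjusted p = 0.0384). The latter call was lost without TD library 1, 2, 4 or 5 or No Strain library 2, whose 37.4 CPM was the highest value. Of the 4 genes tested of 5 chemerin receptors and proteases, 1 fell in Strain, and 1 rose and 1 fell in No Strain, the genes being Gpr1 and Ccrl2. Of all genes, 12.6% and 17.8% passed in these comparisons. The protease gene Ctsg fell by 0.59 with both patches averaged (edgeR adjusted p = 0.0338), a call kept in 3 of 12 such fits.

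Among partners of Rbp4, Stra6, the receptor that takes up retinol from it, gave 23.9 to 32.9 CPM in TD, 6.89 to 22.8 CPM in Strain and 11.8 to 23.1 CPM in No Strain. Its libraries did not overlap between TD and the patches, and with both patch groups averaged it fell by 0.81 (edgeR adjusted p = 0.0491), a call kept in 3 of 12 fits that left out 1 library. Ttr, which encodes transthyretin, the blood partner of RBP4, gave 2.55, 2.22, 0.0399, 0 and 2.81 CPM in TD, 2.44, 3.29, 5.64 and 5.94 CPM in Strain and 11.3, 10.6 and 9.85 CPM in No Strain. Ttr rose by 2.80 on the log2 scale in No Strain (edgeR adjusted p = 0.0362), a call lost without TD library 2 or any 1 No Strain library, and in DESeq2. Of 16 genes of retinol transport and retinoic acid tested, 3 fell in Strain, beside 12.6% of all genes that passed. In No Strain 1 rose and 2 fell, beside 17.8% of all genes. Median log2 fold changes of the list were -0.28 and -0.27. When 1 library was left out, 2 to 4 fell in Strain, fewest without Strain library 2, and 0 to 2 rose and 2 to 3 fell in No Strain, none rising without TD library 2 or any 1 No Strain library. Aldh1a1, an enzyme that makes retinoic acid, gave 64.7 to 99.3 CPM in TD, 33.5 to 40.4 CPM in Strain and 35.0 to 45.3 CPM in No Strain. It fell by 1.06 and 0.95 (edgeR adjusted p = 0.00251 and 0.00276), and Rarg, a retinoic acid receptor of skin, fell by 0.42 and 0.67 (edgeR adjusted p = 0.0228 and 0.00398). The call for Rarg in Strain was lost without Strain library 1 or 2.

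**Figure D5:**
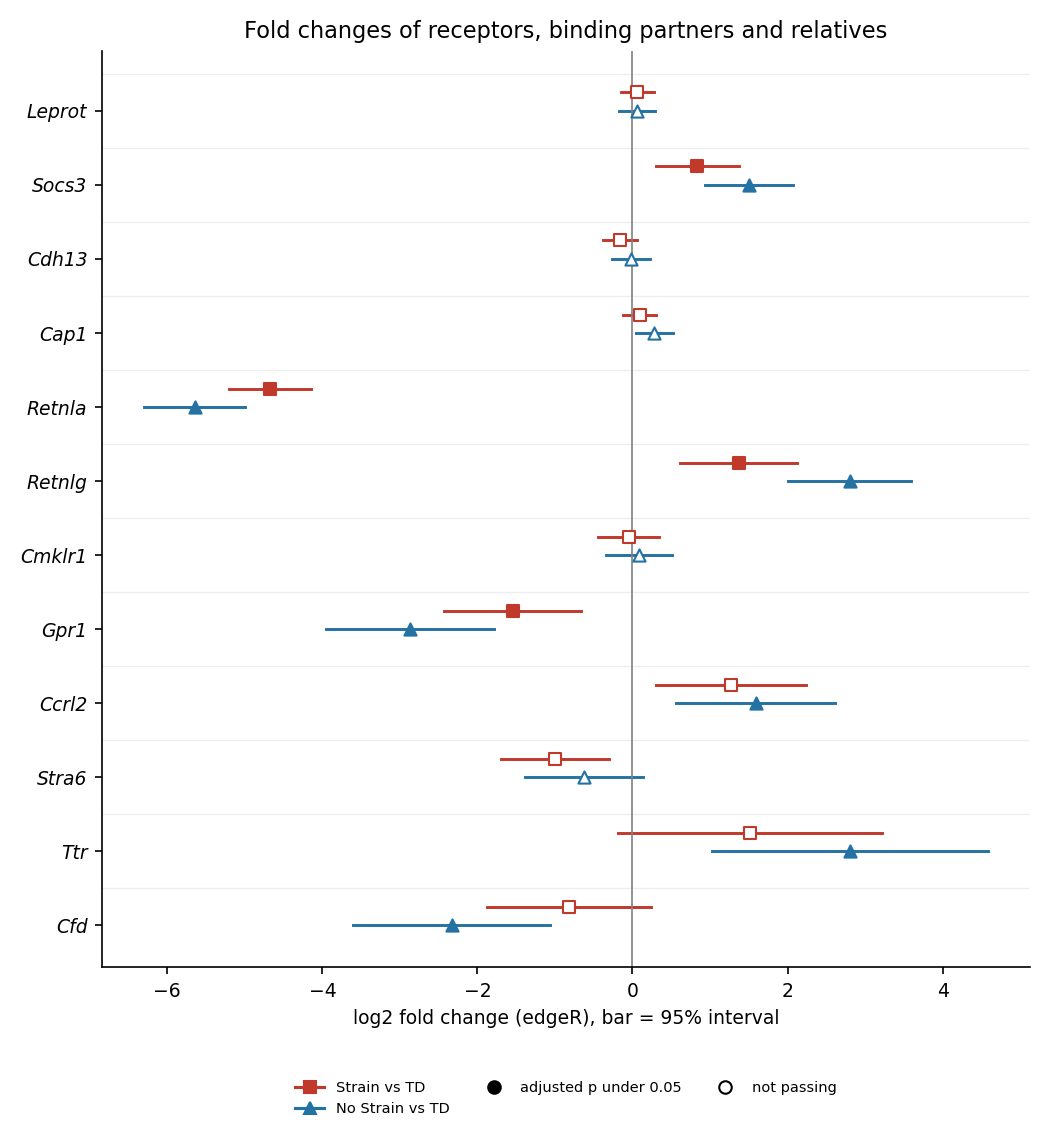
Log2 fold changes, with 95% intervals, of 12 receptors, binding partners and relatives of the adipokines in the edgeR fit, for Strain against TD (squares) and No Strain against TD (triangles); filled symbols passed an adjusted p of 0.05. Retnla lies at -4.68 and -5.65 and Retnlg at 1.37 and 2.81, while Leprot, Cdh13, Cap1 and Cmklr1 have open symbols in both comparisons.

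Other adipokines did not move as a block. Of 25 genes tested of 27, 3 rose and 1 fell in Strain, and 5 rose and 3 fell in No Strain, beside 12.6% and 17.8% of all genes that passed, with median log2 fold changes of 0.08 and 0.00. When 1 library was left out, 1 to 3 rose and 1 fell in Strain, fewest without TD library 4 or Strain library 2. In No Strain 2 to 6 rose and 1 to 4 fell, with 2 and 1 without No Strain library 3, 4 and 1 without No Strain library 1 and 3 and 2 without TD library 2. Cfd, which encodes adipsin, a complement protease that fat cells secrete, gave 46.2, 14.4, 60.1, 39.7 and 13.0 CPM in TD, 21.6, 13.3, 25.0 and 18.8 CPM in Strain and 8.19, 9.83 and 2.60 CPM in No Strain. The Strain libraries lay within the TD range and the No Strain libraries below it. Cfd had a log2 fold change of -0.82 in Strain (edgeR adjusted p = 0.285) and fell by 2.33 in No Strain (edgeR adjusted p = 0.0206), a call lost without No Strain library 1 or 3, without a filter on low counts and in limma-voom. With the adipocyte marker mean as a covariate the value of Cfd turned to 1.25 in Strain and 0.40 in No Strain (edgeR adjusted p = 0.266 and 0.807), and in Strain it was 0.29 with the muscle mean and 0.076 with the neutrophil mean. Sfrp5, a WNT antagonist of fat tissue, fell by 1.79 and 2.20 (edgeR adjusted p = 0.0137 and 0.00690). Tnf rose by 1.29 and 1.63 (edgeR adjusted p = 0.0181 and 0.00657), and Lcn2, a lipocalin that neutrophils and keratinocytes also make, rose by 3.14 and 3.50 (edgeR adjusted p = 0.0200 and 0.0115). In Strain the calls of Tnf and Lcn2 were lost without Strain library 2, and that of Lcn2 also without TD library 4. The neutrophil markers given above rose in the same libraries, and their part in these values was not tested.

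The genes most alike in pattern to each member were taken as the 3 with the highest Pearson's r of log2 CPM over the 12 libraries among all genes tested; these values describe libraries that share groups and tissue content. For Lep they were Tshr (r = 0.994), Npr3 (0.993) and Slc7a10 (0.992), and for Adipoq they were Acvr1c (0.984), Smoc1 (0.982) and Glb1l2 (0.978). For Retn they were Trarg1 (0.973), Aldh6a1 (0.971) and Slc7a10 (0.970), so Slc7a10, an amino acid transporter, was shared with Lep. Nampt was nearest to 9330175E14Rik (0.981), Ifi47 (0.973) and Cd274 (0.972), of which Ifi47 and Cd274 are known to be induced by interferon. Rarres2 was nearest to Med6 (0.934), Serping1 (0.924) and Uimc1 (0.921), and Rbp4 to Gm18180 (0.925), Mllt11 (0.871) and Acaa1b (0.862). Adipor1 was nearest to Kcmf1 (0.916), Tnnt1 (0.889) and Myl3 (0.885), and Adipor2 to Ap1s3 (0.946), Ndufs1 (0.928) and Acsl1 (0.928). Lepr, counted at the lowest depth, had the loosest neighbours, Rpl7-ps7 (0.850), Bbs2 (0.834) and Tcp11 (0.811). After removal of the group means, r was 0.959 for Lep with Tshr, 0.972 for Adipoq with Acvr1c, 0.899 for Retn with Trarg1 and 0.944 for Nampt with 9330175E14Rik.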

How the data were processed

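Each library has its own deposited file, which holds unnormalized read counts for every gene (per the file headers). The submitters' processing notes name bcl2fastq 2.17, FastQC, cutadapt, STAR, featureCounts, DESeq2 and GRCm38; their roles, settings, strand option and annotation release are not given in the sources used here. Per the labels' protocols, mRNA was enriched on oligo(dT) beads from RNA of frozen wounds. Of 54232 gene identifiers, 54079 matched GENCODE M21, which supplied symbols, coordinates and exon lengths.

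Counts were filtered with filterByExpr (minimum count 10, minimum total 15), scaled by TMM and fitted in 1 edgeR 4.0.16 quasi-likelihood model with robust spread over all 12 libraries, in R 4.3.3. Adjustment followed Benjamini and Hochberg, over 18618 genes. Standard errors and 95% intervals were derived from the F statistic. Log2 CPM adds a prior count of 2. The fit was tested on counts simulated without differences in tissue content between groups, unlike the data here. Replicates were numbered in accession order, and 19 pairs within groups had chi-square per degree of freedom of 9.11 to 71.9, so no pair agreed within sampling noise. The 3-count limits cover counting error only.

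Alternatives were DESeq2 1.42.0 and its size factors, library totals, limma-voom (limma 3.58.1), other filters, non-robust spread, fits on the groups compared, covariates (title letter L or R, marker means), a minimum fold change and leaving out each library. The members and lists were chosen with earlier results of these data known. All members and 12 direct partners are named whatever their values. Other lists contribute their called genes of smallest p for both patches against TD, at most 2 in each direction, along with the 3 genes most alike each member.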

Additional observations from a re-analysis of the deposited data

Results flagged for a closer look

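A library stood apart from the others of its group in 5 of 90 group values screened, over the 9 genes and the other named genes in TD and Strain; chance flags about 1 in 20. None of the 5 was an adipokine or adipokine receptor of the main set. Gpr1 had a log2 CPM of 2.29 in Strain library 4, the next highest Strain library being at 1.18. Ctsg had 2.48 in Strain library 3, with the next at 1.71. Aqp7 had 2.21 in Strain library 4, below the next lowest at 2.78. Sh2b1 had 6.01 in TD library 5, below the next lowest at 6.05. Mmp8 had 2.83 in TD library 3, with the next highest at 1.87.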

How the results depend on the processing

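The number of the 9 genes past the threshold depended on the processing. In Strain against TD it was 4, and it was 1 without a filter on low counts, 1 with the title letter as a covariate, 2 in limma-voom and 1 to 4 when 1 library was left out. In No Strain against TD it was 4, with 3 to 5 when 1 library was left out. In Strain against No Strain it was 0 in every alternative run, also when 1 library was left out (0 to 0). With both patches averaged against TD it was 5, with 4 to 5 when 1 library was left out and 3 with a minimum absolute log2 fold change of 1. Counts over all genes moved too. In Strain against TD 2349 of 18618 genes passed, and 1527 of 35687 without the filter. With the title letter, which is unevenly spread over the groups, 798 passed there. In limma-voom 1869 passed there, and 882 to 2458 when 1 library was left out. In No Strain against TD 3305 passed, with 1505 to 3415 when 1 library was left out. With both patches 4552 passed, with 3176 to 4570 when 1 library was left out and 1313 at that fold change. With the skeletal muscle marker mean as a covariate the counts of the 9 genes against TD were 0 in Strain, 1 in No Strain and 0 for both patches. They were 0, 0 and 0 with the adipocyte mean and 0, 0 and 0 with the neutrophil mean, which was chosen after seeing the data. Over all genes, 1, 969 and 121 passed with the muscle mean and 75, 179 and 197 with the adipocyte mean. None passed with the neutrophil mean. The marker means differ between the groups, the neutrophil mean without overlap between TD and the patches, and the cause of the loss was not tested. Lep, Adipoq, Retn and Nampt kept their direction against TD in all alternatives except Adipoq in Strain with the adipocyte mean (0.13).

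Other log2 fold changes of the 9 genes turned sign as follows. With the muscle mean, in Strain against TD, Lepr was -0.44, Rbp4 0.33 and Adipor1 0.055, and with both patches Rbp4 was 0.47. With the adipocyte mean, in Strain Lepr was -0.18 and Rbp4 0.23, in No Strain Rarres2 was -0.43 and Adipor2 0.014, with both patches Rbp4 was 0.72, Rarres2 -0.21 and Adipor2 0.0066, and between the patches Adipor2 was -0.015. With the neutrophil mean Rarres2 was -0.81 in Strain, -1.41 in No Strain and -1.11 with both patches, and Adipor1 was -0.072 in No Strain and -0.13 with both. With library totals alone Adipor1 was -0.029 with both patches. When 1 library was left out, Rbp4 in No Strain ran from -0.044 to 0.26, Nampt between the patches from -0.42 to 0.027, Rarres2 between the patches from -0.14 to 0.64, and with both patches Lepr from -0.17 to 0.028 and Adipor1 from -0.010 to 0.033. Beyond the 9 genes, Socs3 and Irs1 turned sign against TD with the neutrophil mean, as did Gpr1 in Strain, and Cfd did with the adipocyte mean and, in Strain, with the other marker means. Leprot, Cdh13, Cap1 and Cmklr1, which had no call, also turned in some alternatives. In Strain against TD, 6 of 22 adipocyte markers fell without a filter and 6 with the title letter (11 in the fit as described), 7 and 4 of 15 neutrophil markers rose (13), 7 and 7 of 17 muscle markers fell (13), and 2 and 0 of 14 leptin signalling genes passed (6). Lepr had no value at a mean of at least 5 CPM, and fits on only the groups compared give none for both patches. No paired analysis was run, because the labels do not say which wounds, if any, share an animal. The numbers in the titles do not recur between groups, but their meaning is not stated. Groups of 3 to 5 libraries limit what can be called.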

Other observations

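Vessel and skin markers were read in the same libraries as a setting for the adipokine values. Of 10 endothelial markers, 5 rose in Strain and 6 in No Strain against TD, beside 6.20% and 9.35% of all genes. Their median log2 fold changes were 0.40 and 0.48. When 1 library was left out, 3 to 6 rose in Strain, fewest without TD library 2 or 3, and 3 to 7 in No Strain, fewest without No Strain library 3. Emcn, a sialomucin of capillaries and veins, rose by 1.06 and 0.93 on the log2 scale (edgeR adjusted p = 0.00370 and 0.00348), and Pecam1, an adhesion molecule of endothelium, rose by 0.60 and 0.61 (edgeR adjusted p = 0.00890 and 0.00668). None of the 10 fibroblast markers passed in either comparison (1 had an unadjusted p under 0.05 in each), and none did in DESeq2 or limma-voom. None of 12 keratinocyte markers passed in edgeR (3 in Strain and 1 in No Strain had an unadjusted p under 0.05); 2 rose in Strain and 1 in No Strain in DESeq2, and none in limma-voom. With both patches averaged, Krt16, a keratin of wound edges, rose by 1.35 (edgeR adjusted p = 0.0277), a call lost without TD library 2, 3, 4 or 5 or No Strain library 1.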
